A study of Homo sapiens with 12 samples.

Results

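Interferon-stimulated genes were followed by RNA sequencing in PEO1, a long-established line of human ovarian cancer cells. The group holds 43 genes chosen by symbol from general knowledge of the interferon response, with earlier results of these data known. Shares of members set beside those of all genes therefore describe the group and do not test it. All 43 were found among the 57773 entries of the deposited count table, and 42 had enough counts to be tested. The remaining member, MX2, which encodes an antiviral GTPase, had between 0 and 4 counts per library. The study concerns the way mutant p53 acts on estrogen receptor alpha and on the response to endocrine therapy.

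Cells carried the empty lentiviral vector pLKO.1 (control-vector cells) or a short hairpin RNA against p53, labelled shp53 (knockdown cells). Each line was sampled untreated at 0 h and after 48 h with 10 μM fulvestrant, an antagonist that leads to degradation of the estrogen receptor, with 3 libraries in each of the 4 groups. All groups grew in medium with serum and puromycin, which keeps cells with the vector. The treatment protocol names 100 pM E2 (estradiol) with fulvestrant, and the sources used here do not say whether untreated cells also received it. Drug, time in culture and any difference in E2 therefore cannot be told apart in a comparison of treated with untreated libraries. The sources used here also do not say whether each line is a clone or a pool of infected cells. The labels do not state that a group's 3 libraries came from separate cultures. P-values then measure only the spread between libraries, and that spread may be technical.

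Type I interferons bind the IFNAR1 and IFNAR2 receptor and act through the kinases JAK1 and TYK2. Phosphorylated STAT proteins then join IRF9, and this complex binds the interferon-stimulated response element (ISRE) in the promoters of its targets. Type II interferon acts through STAT dimers, which bind another element (GAS). The proteins made from these genes sense viral nucleic acid, block viral entry, replication and translation, or feed back on the pathway. In tumour cells the same genes can be expressed without added interferon.

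The 12 libraries held between 21581887 and 28481541 counts. Markers of epithelial and ovarian carcinoma cells, such as EPCAM, KRT7 and PAX8, summed to 6431 to 11388 CPM (counts scaled to library size by TMM factors). Of 12 leukocyte markers, CD3D, MS4A1, NKG7 and FCGR3A had 0 counts in all 12 libraries, and PTPRC, CD3E and CSF1R had between 0 and 5. CD14 had 17 to 160 counts, ITGAM 8 to 22, LYZ 4 to 15 and HLA-DRA 2 to 10. The summed level of the leukocyte list was 4.77 to 7.54 CPM in untreated and 2.00 to 4.996 CPM in treated libraries. Of 9 fibroblast and endothelial markers in the table, COL3A1 and LUM had 0 counts throughout, while COL1A1 had 33 to 182 and CDH5 112 to 275. That list summed to 11.5 to 15.7 CPM in untreated and 6.62 to 10.8 CPM in treated libraries. The part of either list in the results below was not tested. In bulk RNA, fewer cells of a type and less RNA per cell cannot be told apart.

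The libraries differed in how levels ran with the GC content of transcripts. The slope of log2 CPM deviations on GC content, per 10 percentage points of GC, was between −0.09 and 0.23 in untreated control-vector libraries and between −0.05 and 0.15 in untreated knockdown libraries. In treated cells the slope was 0.25, 0.07 and −0.34 in control-vector libraries 1, 2 and 3, and −0.07, −0.37 and −0.01 in knockdown libraries 1, 2 and 3. The 4 libraries farthest from 0 were treated control-vector libraries 1 and 3, untreated control-vector library 3 and treated knockdown library 2. Counts of members are therefore also given with this trend removed within the fit (GC-corrected) and without those 4 libraries, both chosen after seeing the data. Without the 4 libraries, treated control-vector cells have 1 library left, which is assumed to vary like the other groups. Transcripts of the members ranged from 36.0% GC (SAMD9) to 66.8% (IRF7), with a median of 49.0% against 48.2% for all tested genes.

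Promoters show how the members carry the element their pathway acts through, and 5 are printed because their genes passed the test in these data. Promoter sequence, the 250 bases before the gene's start, was found for 34 of the 43 members in a RefSeq table of build GRCh38.p14. Only 1 start per gene was taken, matched by symbol and not to the transcript counted. A window can therefore lie at another start than that of the counted transcript. The ISRE was searched as GAAA, any 2 bases and GAAA, and the GAS element as TTC, any 3 bases and GAA, on both strands, so that an ISRE on the other strand starts and ends with TTTC. An ISRE match was present in 18 of 34 member promoters (52.9%) and in 839 of 27305 promoters of the whole table (3.07%). A GAS match was present in 9 of 34 (26.5%) and in 6.78% of all. The members were chosen as interferon targets, so these shares describe the group and test nothing. Capitals mark ISRE matches, and overlapping matches run together. PARP14 (chr3:122680589-122680838, plus strand) held 1 match, which began 29 bases before the start. IFIT3 (chr10:89327747-89327996, plus strand) held matches at 156 and 122 bases, both on the other strand, and OAS3 (chr12:112938224-112938473, plus strand) at 143 and 12 bases. IFIH1 (chr2:162318685-162318934, minus strand) held 3 matches, at 159, 153 and 21 bases, of which the first and second overlap. RSAD2 (chr2:6865635-6865884, plus strand) is shown as a called gene without a match, which says only that these letters are not in this window.
PARP14: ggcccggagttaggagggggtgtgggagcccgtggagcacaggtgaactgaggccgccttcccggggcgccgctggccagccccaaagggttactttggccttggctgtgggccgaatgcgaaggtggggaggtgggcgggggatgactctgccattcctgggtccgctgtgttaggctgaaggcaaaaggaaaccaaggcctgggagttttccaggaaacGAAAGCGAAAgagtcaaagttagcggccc
IFIT3: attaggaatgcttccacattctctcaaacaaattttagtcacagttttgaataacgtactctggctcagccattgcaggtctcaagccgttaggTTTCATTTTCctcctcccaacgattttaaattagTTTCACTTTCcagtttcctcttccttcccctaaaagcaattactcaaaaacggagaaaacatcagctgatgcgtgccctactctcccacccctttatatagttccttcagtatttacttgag
OAS3: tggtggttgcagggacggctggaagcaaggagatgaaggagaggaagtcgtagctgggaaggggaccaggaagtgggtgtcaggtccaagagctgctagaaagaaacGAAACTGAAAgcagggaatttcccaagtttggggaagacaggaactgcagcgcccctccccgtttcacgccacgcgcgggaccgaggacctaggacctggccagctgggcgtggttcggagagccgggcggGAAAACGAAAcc
IFIH1: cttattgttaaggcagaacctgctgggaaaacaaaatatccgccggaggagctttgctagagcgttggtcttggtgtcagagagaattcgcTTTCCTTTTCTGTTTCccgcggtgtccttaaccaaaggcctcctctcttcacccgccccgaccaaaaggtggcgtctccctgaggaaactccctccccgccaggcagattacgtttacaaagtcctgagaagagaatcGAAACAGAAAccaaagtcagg
RSAD2: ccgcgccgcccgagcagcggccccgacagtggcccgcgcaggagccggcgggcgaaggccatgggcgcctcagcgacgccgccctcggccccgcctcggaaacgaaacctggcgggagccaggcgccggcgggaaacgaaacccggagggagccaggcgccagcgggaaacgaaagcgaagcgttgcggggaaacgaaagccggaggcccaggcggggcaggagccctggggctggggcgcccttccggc

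The members differed widely in level before any comparison. Per kilobase of transcript, and as a mean of all 12 libraries, IFITM3 was highest at 83.3 CPM per kb and IFI27 was next at 55.1. TRIM25 (23.9), PARP14 (19.96), SAMD9 (16.3) and IFI35 (16.2) followed. At the low end stood BST2 (0.416), XAF1 (0.265), IFI44L (0.116) and MX2 (0.0186 CPM per kb).

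Comparing treated with untreated cells asks how interferon-stimulated genes respond to fulvestrant in each line. More of them rose than fell in both lines, and the highest fold changes were those of IFIT2, TRIM22, XAF1 and RSAD2, while IFITM1, OAS3 and USP18 fell. In control-vector cells 13 of 42 tested members rose and 3 fell, 38.1% of them, against 27.8% of all 15715 tested genes (edgeR quasi-likelihood test, Benjamini-Hochberg adjusted p under 0.05). By direction, 13.4% of all genes rose and 14.3% fell. In knockdown cells 21 members rose and 4 fell, 59.5% against 40.9% of all genes, of which 21.3% rose and 19.6% fell. The libraries of the groups did not overlap in 15 members that were higher and 4 that were lower in control-vector cells, against 37.9% of all genes (18.5% higher, 19.4% lower). In knockdown cells this held for 24 higher and 5 lower members, against 58.6% of all genes (28.9% higher, 29.7% lower). With upper quartile scaling the split of all genes moved to 15.7% higher and 9.84% lower in control-vector cells and 25.4% and 15.1% in knockdown cells, and the members to 14 higher and 3 lower, and 24 and 3.

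The median log2 fold change of the members was 0.07 in control-vector cells and 0.29 in knockdown cells, where all tested genes had a median of −0.01 in both. The 13 members that rose and the 3 that fell in control-vector cells also did so in knockdown cells. These comparisons share no library, but they share the model's estimate of spread and the same limits of drug, time and E2. GC-corrected, 16 members rose and 3 fell in control-vector cells (42.8% of all genes called) and 25 rose and 5 fell in knockdown cells (54.2%). Without the 4 libraries, 8 rose and 3 fell in control-vector cells (20.4% of all genes called), where DDX60, HERC6, SP110, STAT2 and XAF1 no longer passed. In knockdown cells 21 rose and 4 fell (42.1%), where IFIT5 (0.19, adjusted p = 0.0539) and IFI16 (0.19, adjusted p = 0.0787) no longer passed and IFI35 (0.37, adjusted p = 0.0392) and DHX58 (0.54, adjusted p = 0.0297) did.

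Same-numbered untreated libraries deviated together, with correlations of 0.78, 0.14 and 0.66 for numbers 1, 2 and 3. Their GC slopes rose from number 1 to number 3 in both lines. A fit with terms for untreated numbers 2 and 3 sets treated libraries against the fitted level of untreated libraries numbered 1. It does not use the untreated mean, so it does not show what pairing alone would change. In that fit 8 members rose and 3 fell in control-vector cells (20.7% of all genes called). In knockdown cells 15 rose and 3 fell (29.8%). In control-vector cells that fit ended the calls of DDX60 (adjusted p = 0.205), HERC6 (0.161), SP110 (0.145), STAT2 (0.0715) and TRIM22 (0.0688). In knockdown cells it ended those of DDX60 (adjusted p = 0.091), HERC5 (0.0757), IFI16 (0.213), IFIT5 (0.172), OAS1 (0.0827), PARP9 (0.159) and TRIM21 (0.0759). Their signs were the same in both fits.

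**Figure D1:**
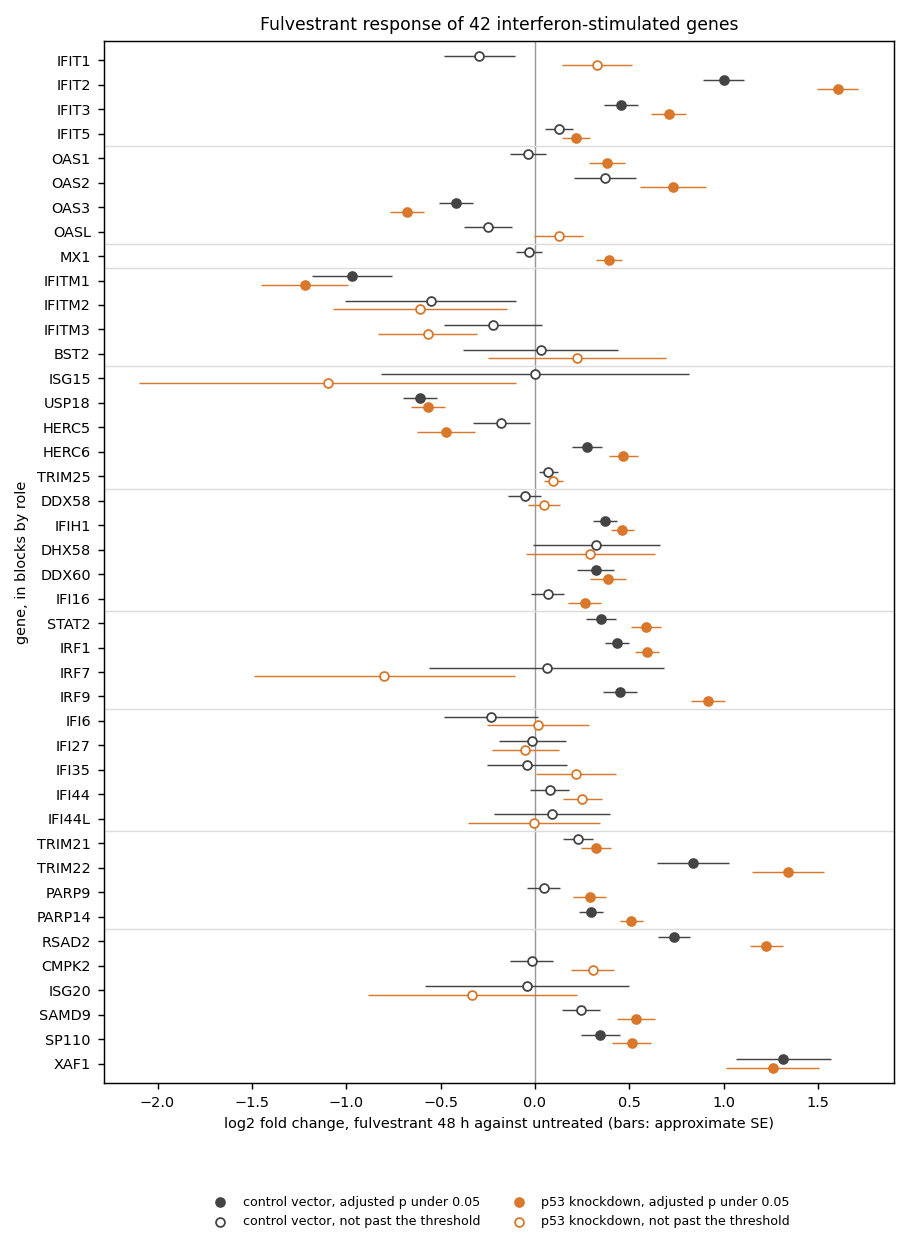
Log2 fold change of fulvestrant for 48 h against untreated (horizontal axis) for the 42 tested members, in blocks by role (vertical axis). Dark points are control-vector cells, orange points knockdown cells, bars approximate standard errors and filled points adjusted p under 0.05. IFIT2, TRIM22, RSAD2 and XAF1 lie farthest to the right and IFITM1 farthest to the left among called members, and open points with long bars include ISG15 and IRF7.

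Of 4 transcription factors of the pathway, 3 rose in both lines. IRF9, the DNA-binding subunit of the STAT complex, stood at 17.2, 16.4 and 17.9 CPM in libraries 1, 2 and 3 of untreated control-vector cells and at 24.6, 24.1 and 21.7 CPM after fulvestrant. In knockdown cells it went from 14.3, 11.7 and 14.2 CPM to 27.1, 24.1 and 24.7 CPM. All treated libraries of either line lay above all untreated ones, with a change of 0.45 (SE 0.09, adjusted p = 0.00358) with the control vector and 0.92 (SE 0.09, adjusted p = 2.04e-05) with the hairpin. Its partner STAT2 had 45.1, 37.3 and 37.6 CPM untreated and 47.9, 51.0 and 54.2 CPM treated in control-vector cells. Knockdown cells had 40.1, 38.0 and 37.5 CPM of STAT2 untreated and 56.1, 60.6 and 57.1 CPM treated. The groups did not overlap in either line, although untreated control-vector library 1 came close to the lowest treated one. STAT2 rose by 0.35 (SE 0.08, adjusted p = 0.00776) and 0.59 (SE 0.08, adjusted p = 0.00019) on the log2 scale. In control-vector cells this call was lost without the 4 libraries (0.29, adjusted p = 0.0652).

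IRF1, a factor induced mainly by type II interferon, was tight within groups. It stood at 66.1, 66 and 64.7 CPM untreated and at 90.2, 93.5 and 82.2 CPM treated in control-vector cells. In knockdown cells the values were 66.05, 63.4 and 59.8 CPM and 96.3, 89.8 and 99.4 CPM. Treated libraries were all above untreated ones, with log2 fold changes of 0.43 (SE 0.06, adjusted p = 0.000524) and 0.59 (SE 0.06, adjusted p = 3.13e-05). IRF7, the factor that amplifies type I interferon production, had group means of 1.04 to 2.71 CPM and passed in no comparison with all 12 libraries and no correction. GC-corrected, it was lower with the hairpin on average over treatments (−0.56, adjusted p = 0.0381). Its spread was wide, from 0.807 to 4.95 CPM within treated control-vector cells alone.

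Among the IFIT genes, whose proteins bind viral RNA and block its translation, IFIT2 and IFIT3 rose in both lines. IFIT2 had 18.2, 15.8 and 14.7 CPM in untreated control-vector cells and 29.1, 33.0 and 35.2 CPM after fulvestrant. With the hairpin it had 14.9, 15.4 and 13.3 CPM untreated and 43.0, 49.1 and 40.6 CPM treated. The treated knockdown libraries were the highest of all 12, each above every treated control-vector library. The log2 fold change of fulvestrant was 1.00 (SE 0.11, adjusted p = 9.19e-05) in control-vector and 1.60 (SE 0.11, adjusted p = 1.72e-06) in knockdown cells. IFIT3 went from 19.9, 16.2 and 17.7 to 22.7, 25.5 and 25.8 CPM in control-vector cells and from 17.9, 15.6 and 16.2 to 26.1, 28.8 and 26.5 CPM in knockdown cells. Its groups did not overlap, and it rose by 0.46 (SE 0.09, adjusted p = 0.00361) and 0.71 (SE 0.09, adjusted p = 0.000124) on the log2 scale.

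IFIT5, the member of this family that also binds cellular RNA, rose in knockdown cells from 21.2 ± 0.687 to 24.7 ± 0.604 CPM (mean ± SD, n = 3 libraries, log2 change 0.22, edgeR adjusted p = 0.0395). That call was lost on leaving out any 1 of 10 of the 12 libraries, all but untreated control-vector library 1 and treated control-vector library 3, with adjusted p between 0.0543 and 0.219. It was also lost in the GC-corrected fit (0.15, adjusted p = 0.0567). IFIT1 passed in neither line. Its means were 3.95 ± 0.937 and 3.23 ± 0.521 CPM in control-vector cells and 3.496 ± 0.0759 and 4.40 ± 0.702 CPM in knockdown cells.

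The oligoadenylate synthetases make a messenger that activates RNase L, and here they did not move one way. OAS3, the longest of them, stood at 97.5, 99.2 and 109 CPM in untreated and 81.7, 79.8 and 67.2 CPM in treated control-vector cells. In knockdown cells it stood at 88.1, 87.6 and 87.4 CPM untreated and at 58.8, 48.4 and 57.2 CPM treated. Every treated library was below every untreated library of its line, and OAS3 fell by 0.42 (SE 0.09, adjusted p = 0.00535) and by 0.68 (SE 0.09, adjusted p = 0.00015) on the log2 scale. OAS2 rose in knockdown cells from 1.63 ± 0.319 to 2.71 ± 0.182 CPM (log2 change 0.73, adjusted p = 0.00613). In control-vector cells OAS2 had means of 2.87 ± 0.489 and 3.72 ± 0.223 CPM (0.37, adjusted p = 0.12). OAS1 rose in knockdown cells from 10.4 ± 1.27 to 13.5 ± 1.23 CPM (0.38, adjusted p = 0.00866), and had 13.1 ± 0.392 and 12.8 ± 0.149 CPM in control-vector cells (−0.04, adjusted p = 0.833). OASL, which activates the sensor RIG-I and has no synthetase activity, passed in neither line, with log2 fold changes of −0.25 and 0.13.

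MX1, a GTPase that traps viral ribonucleoprotein, was level in control-vector cells and higher after fulvestrant in knockdown cells. The control-vector libraries had 22.5, 20.8 and 22.9 CPM untreated and 21.8, 21.7 and 21.4 CPM treated, which overlap. Knockdown libraries had 15.3, 13.9 and 14.8 CPM untreated and 19.4, 20.6 and 17.9 CPM treated, with no overlap. The log2 fold change was −0.03 (SE 0.07, adjusted p = 0.798) in control-vector and 0.39 (SE 0.07, adjusted p = 0.00121) in knockdown cells.

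Among genes of membrane proteins that restrict viruses, IFITM1 fell in both lines. It went from 3.63 ± 0.412 to 1.86 ± 0.402 CPM in control-vector cells (log2 change −0.97, SE 0.21, adjusted p = 0.00615) and from 2.29 ± 0.207 to 0.988 ± 0.298 CPM in knockdown cells (−1.22, SE 0.23, adjusted p = 0.00161). Counts were low, between 19 and 97 per library. IFITM3, the most abundant member per length, passed in neither line, with log2 fold changes of −0.22 and −0.57. Its levels in treated control-vector cells were 93.6, 77.1 and 41.7 CPM in libraries 1, 2 and 3, the order of their GC slopes. In knockdown cells IFITM3 passed without treated control-vector library 3 (−0.58, adjusted p = 0.0181), and GC-corrected (−0.38, adjusted p = 0.0492). IFITM2 and BST2, with at most 22 and 19 counts, passed in neither line. Without treated knockdown library 1, IFITM2 passed in knockdown cells (−1.41, adjusted p = 0.025, against −0.61 with it). The IFITM genes have near-identical sequences, so reads could be divided between them by the counting.

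ISG15 is a ubiquitin-like protein, and the members around it attach it, remove it or are related ligases. USP18 removes ISG15 and also blocks the interferon receptor. It stood at 23.8, 22.9 and 21.8 CPM untreated and at 14.6, 15.8 and 14.4 CPM treated in control-vector cells. Knockdown libraries had 21.4, 19.2 and 17.1 CPM untreated and 14.1, 12.6 and 12.3 CPM treated. No groups overlapped, and USP18 fell by 0.61 (SE 0.09, adjusted p = 0.000653) and by 0.57 (SE 0.09, adjusted p = 0.000594) on the log2 scale. HERC6 moved the other way, from 28.6, 27.5 and 26.2 to 34.1, 31.8 and 33.5 CPM in control-vector cells and from 28.8, 25.8 and 23.4 to 35.5, 37.9 and 34.6 CPM in knockdown cells. It rose by 0.28 (SE 0.08, adjusted p = 0.0227) and by 0.47 (SE 0.08, adjusted p = 0.000741) without overlap of the groups.

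The HERC6 call in control-vector cells was lost without treated library 1 or 3 or untreated library 2 or 3 of that line, with adjusted p between 0.0541 and 0.0822. HERC5, the ligase that attaches ISG15 in human cells, fell in knockdown cells from 5.05 ± 0.282 to 3.64 ± 0.779 CPM (−0.47, adjusted p = 0.0311). This was lost on leaving out any 1 of 7 libraries, namely any untreated knockdown library, treated knockdown library 1 or 3 or treated control-vector library 1 or 2 (adjusted p 0.0502 to 0.155). TRIM25, which activates RIG-I, passed in neither line (0.07 and 0.10). GC-corrected, TRIM25 passed in both (0.11, adjusted p = 0.0357, and 0.13, adjusted p = 0.0121). ISG15 itself ranged from 5 to 188 counts and passed with fulvestrant in neither line. Its comparisons with the hairpin are given below.

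Of the sensors of nucleic acid, IFIH1 (MDA5), which detects long double-stranded RNA, rose in both lines. Its levels were 19.4, 18.7 and 19.7 CPM untreated and 24.02, 25.1 and 25.8 CPM treated in control-vector cells. In knockdown cells they were 19.1, 20.2 and 18.1 CPM and 26.4, 27.6 and 25.3 CPM. Untreated libraries of both lines lay together and all treated libraries lay above them, with log2 fold changes of 0.37 (SE 0.06, adjusted p = 0.00141) and 0.46 (SE 0.06, adjusted p = 0.000186). DDX58 (RIG-I) did not pass, with log2 fold changes of −0.05 and 0.05 around group means of 61.8 to 69.9 CPM. DHX58 (LGP2), the regulator of both sensors, had 0.33 and 0.29 without passing, and passed GC-corrected in knockdown cells (0.51, adjusted p = 0.0336).

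DDX60, a helicase linked to RIG-I, rose from 25.4 ± 1.76 to 31.7 ± 4.29 CPM in control-vector cells (0.32, adjusted p = 0.0281) and from 23.99 ± 1.05 to 31.4 ± 1.67 CPM in knockdown cells (0.39, adjusted p = 0.00785). The first call was lost without any 1 of 6 libraries, control-vector libraries 2 and 3 of either treatment and treated knockdown libraries 1 and 3 (adjusted p 0.0675 to 0.139). The second was lost without treated knockdown library 2 (adjusted p = 0.0704). IFI16, a DNA sensor, rose in knockdown cells from 32.0 ± 2.47 to 38.4 ± 3.01 CPM (0.26, adjusted p = 0.0326). That call was lost without untreated knockdown library 2 or 3, treated knockdown library 2 or 3 or treated control-vector library 2 (adjusted p 0.0504 to 0.198).

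TRIM22, a ubiquitin ligase that restricts several viruses, had 4.05, 2.38 and 4.19 CPM in untreated and 6.004, 6.34 and 6.75 CPM in treated control-vector cells. Knockdown libraries had 3.98, 3.59 and 2.86 CPM untreated and 8.64, 9.17 and 8.69 CPM treated. As for IFIT2, the 3 treated knockdown libraries were the highest of the 12. TRIM22 rose by 0.84 (SE 0.19, adjusted p = 0.00748) and by 1.34 (SE 0.19, adjusted p = 0.000242) on the log2 scale. PARP14, an ADP-ribosyltransferase, went from 163, 147 and 150 to 179, 190 and 196 CPM in control-vector cells and from 143, 133 and 135 to 189, 209 and 187 CPM in knockdown cells. Its groups did not overlap, and it rose by 0.30 (SE 0.06, adjusted p = 0.00481) and by 0.51 (SE 0.06, adjusted p = 8.74e-05).

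PARP9, the partner of the ligase DTX3L, rose in knockdown cells from 59.5 ± 3.71 to 72.8 ± 4.39 CPM (0.29, adjusted p = 0.0202). It lost the call without treated control-vector library 2, treated knockdown library 1 or 2 or untreated knockdown library 3 (adjusted p 0.0558 to 0.147). TRIM21, an antibody receptor inside the cell, rose there from 16.5 ± 1.48 to 20.7 ± 0.927 CPM (0.32, adjusted p = 0.00747), a call lost without treated knockdown library 2 (adjusted p = 0.0557). In control-vector cells TRIM21 had 0.23 (adjusted p = 0.0536), and passed without untreated knockdown library 3 (adjusted p = 0.0338) and GC-corrected (0.26, adjusted p = 0.0149).

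RSAD2 (viperin), an enzyme whose product ends viral RNA synthesis, was among the strongest responders. It had 7.50, 7.20 and 6.81 CPM untreated and 11.2, 11.6 and 13.0 CPM treated in control-vector cells. In knockdown cells it had 6.75, 5.85 and 6.07 CPM untreated and 14.7, 14.7 and 14.4 CPM treated. Treated libraries were above untreated ones in both lines, and treated knockdown libraries above treated control-vector ones, with fulvestrant log2 fold changes of 0.74 (SE 0.09, adjusted p = 0.00014) and 1.23 (SE 0.09, adjusted p = 2.00e-06). CMPK2, its neighbour on chromosome 2 and a nucleotide kinase, passed in neither line (−0.02 and 0.31, the latter with adjusted p = 0.053). CMPK2 passed in knockdown cells without treated control-vector library 1 or 3 (adjusted p 0.0439 and 0.0391) and GC-corrected (0.31, adjusted p = 0.0363).

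SAMD9, a restriction factor for poxviruses, had 110, 91.0 and 90.1 CPM in untreated and 103, 112 and 130 CPM in treated control-vector cells, which overlap (0.24, SE 0.10, adjusted p = 0.101). It had 100, 98.1 and 89.3 CPM in untreated and 136, 149 and 132 CPM in treated knockdown cells, without overlap (0.54, SE 0.10, adjusted p = 0.00157). In control-vector cells it passed without treated or untreated control-vector library 1 (adjusted p 0.047 and 0.0286), and GC-corrected (0.22, adjusted p = 0.000708). SP110, a nuclear body protein, rose from 17.1 ± 0.905 to 21.7 ± 2.26 CPM (0.35, adjusted p = 0.0276) and from 17.1 ± 2.13 to 24.4 ± 0.962 CPM (0.51, adjusted p = 0.00237).

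In control-vector cells the SP110 call was lost on leaving out any 1 of 6 libraries, control-vector libraries 2 and 3 of either treatment and treated knockdown libraries 1 and 3 (adjusted p 0.0516 to 0.11). XAF1, a pro-apoptotic antagonist of XIAP, had only 9 to 37 counts per library. It rose from 0.516 ± 0.0666 to 1.299 ± 0.216 CPM (1.32, SE 0.25, adjusted p = 0.00295) and from 0.591 ± 0.199 to 1.43 ± 0.0776 CPM (1.26, SE 0.25, adjusted p = 0.00205). ISG20, an exonuclease, passed in neither line (−0.04 and −0.33), nor did IFI6, IFI27, IFI35, IFI44 and IFI44L, whose log2 fold changes lay between −0.23 and 0.25. Of these, IFI27 and IFI35 passed GC-corrected in knockdown cells (0.22, adjusted p = 0.00253, and 0.48, adjusted p = 0.000571).

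**Figure D2:**
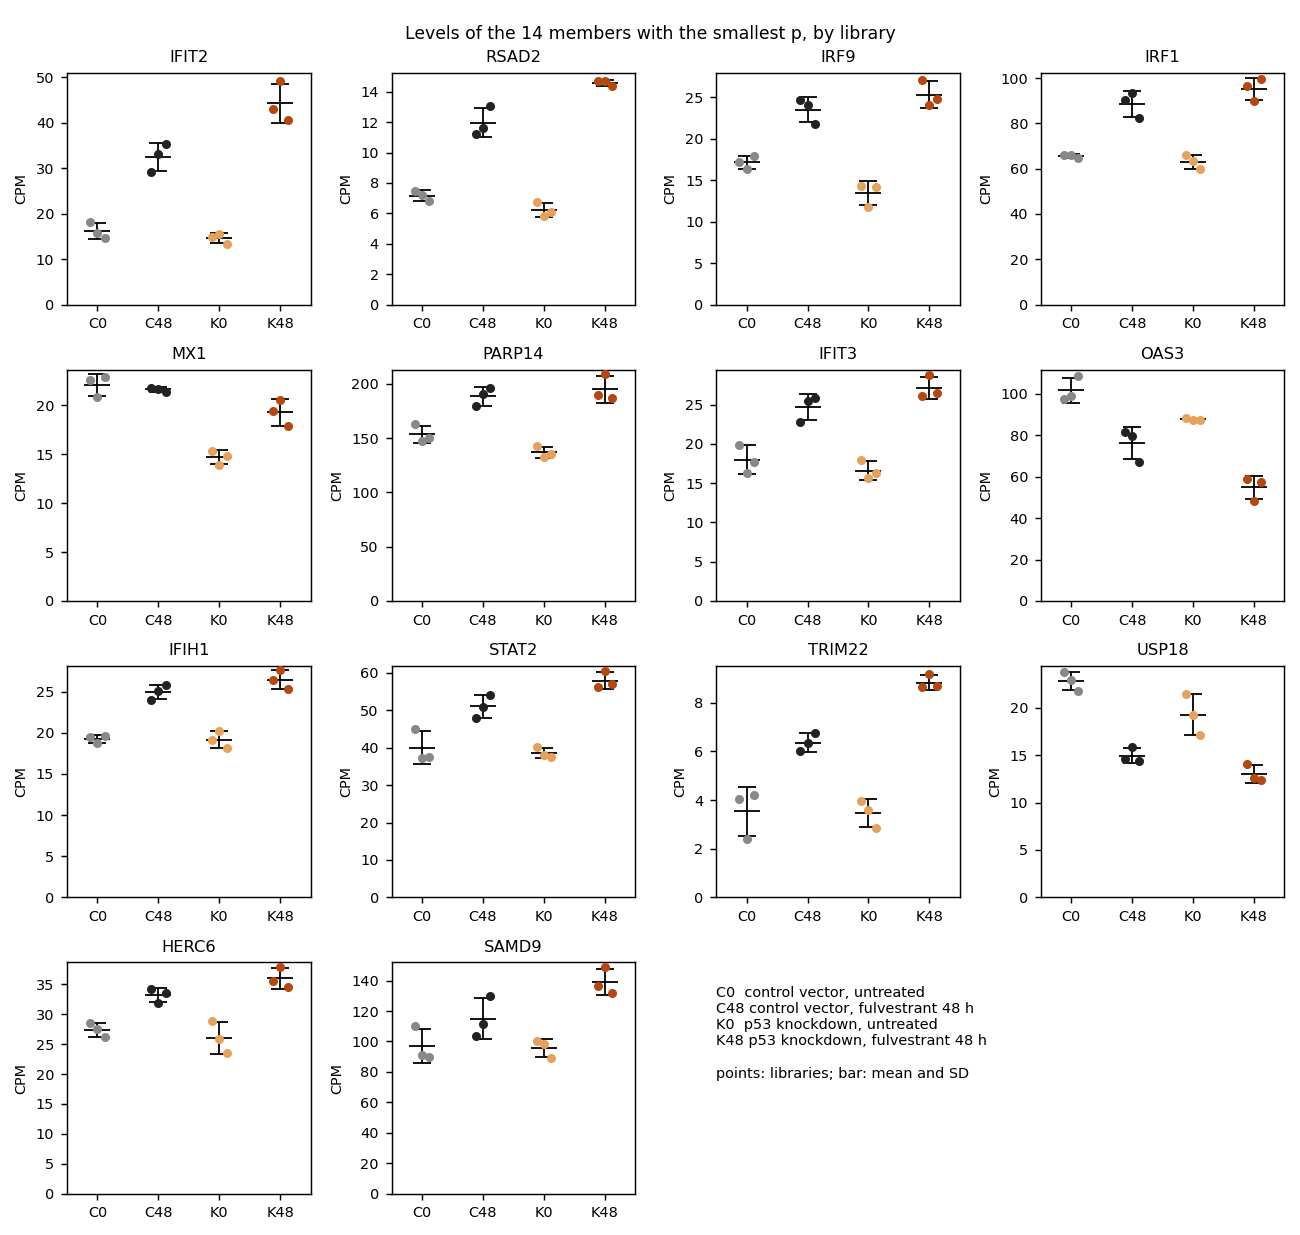
Level in CPM (vertical axis, from 0) of the 14 members with the smallest p in any pairwise comparison and a mean log2 CPM of at least 1. Points are libraries, bars the mean and SD, C and K the control vector and the knockdown, 0 and 48 the hours. In IFIT2, RSAD2 and TRIM22 the 3 treated knockdown libraries are the highest of the 12, while in OAS3 and USP18 treated libraries are the lowest of each line.

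The promoter matches can be set beside these directions. Of 17 members with a promoter that were higher with fulvestrant on average over both lines, 6 held an ISRE, among them the printed PARP14, IFIT3 and IFIH1. All 3 of those lower, OAS3, IFITM1 and HERC5, held one (the HERC5 call rests on single libraries, as given below), as did 9 of 14 that were not called. RSAD2, printed above, held none in the window taken, and other starts of these genes were not searched.

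Comparing knockdown with control-vector cells asks what the p53 hairpin changes in these genes before and under treatment. In untreated cells MX1 and OAS2 fell and no member rose, 4.76% of the 42 against 1.58% of all genes, 1.02% higher and 0.566% lower (edgeR, adjusted p under 0.05). MX1 fell by 0.59 (SE 0.07, adjusted p = 0.00171) on the log2 scale, with all 3 untreated knockdown libraries, given above, below the 3 control-vector ones. OAS2 had 2.95, 2.34 and 3.31 CPM in untreated control-vector and 1.99, 1.39 and 1.51 CPM in untreated knockdown cells, which is −0.81 on the log2 scale (SE 0.17, adjusted p = 0.0444). The OAS2 call was lost without any 1 of 9 libraries, with adjusted p between 0.0596 and 0.197. Only without untreated control-vector library 2, untreated knockdown library 1 or treated control-vector library 3 did it remain.

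The sign was shared widely although few members passed. In untreated cells 38 of 42 members had a negative log2 fold change with the hairpin, and the median was −0.16 against −0.01 for all genes. In 15 members the groups did not overlap, all lower in knockdown cells, against 16.2% of all genes, 8.69% higher and 7.51% lower. Among them were OAS1 (13.1 ± 0.392 against 10.4 ± 1.27 CPM, −0.34, adjusted p = 0.16), IFI6 (2.52 ± 0.318 against 1.27 ± 0.162 CPM, −0.98, adjusted p = 0.111), IRF9 (−0.35, adjusted p = 0.102), IFITM1 (−0.66, adjusted p = 0.214) and OAS3 (−0.21, adjusted p = 0.43).

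GC-corrected, 7 members fell in untreated cells and none rose, with 6.41% of all genes called. They were OAS1, OAS2, OAS3, MX1, IFITM1, IFI6 and PARP14, with log2 fold changes from −0.96 to −0.18. GC-corrected with the replicate numbers of untreated cells as pairs, 6 fell and none rose. Without the 4 libraries only MX1 passed (−0.55, adjusted p = 0.0126), with 1.7% of all genes called. IFI6 passed in untreated cells without treated knockdown library 3 (−0.99, adjusted p = 0.039).

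With fulvestrant in both lines, IFIT2 was higher and OAS3 and IFITM1 were lower in knockdown cells, 7.14% of members against 7.02% of all genes (4.28% higher, 2.74% lower). IFIT2 was higher by 0.45 on the log2 scale (SE 0.11, adjusted p = 0.0301), from 32.4 ± 3.09 to 44.2 ± 4.38 CPM. OAS3 had −0.48 (SE 0.09, adjusted p = 0.00982), from 76.2 ± 7.89 to 54.8 ± 5.59 CPM, and IFITM1 −0.91 (SE 0.23, adjusted p = 0.0408). In 10 members the knockdown libraries lay above and in 7 below all control-vector libraries, against 23.6% of all genes (15.3% higher, 8.29% lower). The median of the members was 0.02, with 21 positive and 21 negative.

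This set of calls depended on single libraries. IFIT2 was lost without untreated control-vector library 2, treated control-vector library 1 or 2 or any treated knockdown library (adjusted p 0.0523 to 0.178). With untreated libraries as pairs, IFITM1 had adjusted p = 0.063. It was lost without any 1 of 10 libraries, all but treated control-vector library 3 and treated knockdown library 3 (adjusted p 0.0549 to 0.118), and only OAS3 passed without the 4 libraries (−0.46, adjusted p = 0.00856, with 2.75% of all genes called). Leaving out treated control-vector library 3 gave 7 calls, 3 higher and 4 lower, and added RSAD2 (0.38, adjusted p = 0.0172), SAMD9 (0.40, adjusted p = 0.0194), IFITM3 (−0.85, adjusted p = 0.0184) and ISG15 (−2.93, adjusted p = 0.0444). IFI6 passed without treated knockdown library 3 (−1.08, adjusted p = 0.032). GC-corrected, 4 were higher (IFIT2, RSAD2, SAMD9 and IRF1) and 3 lower (OAS2, OAS3 and IFITM1), with 20.3% of all genes called.

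**Figure D3:**
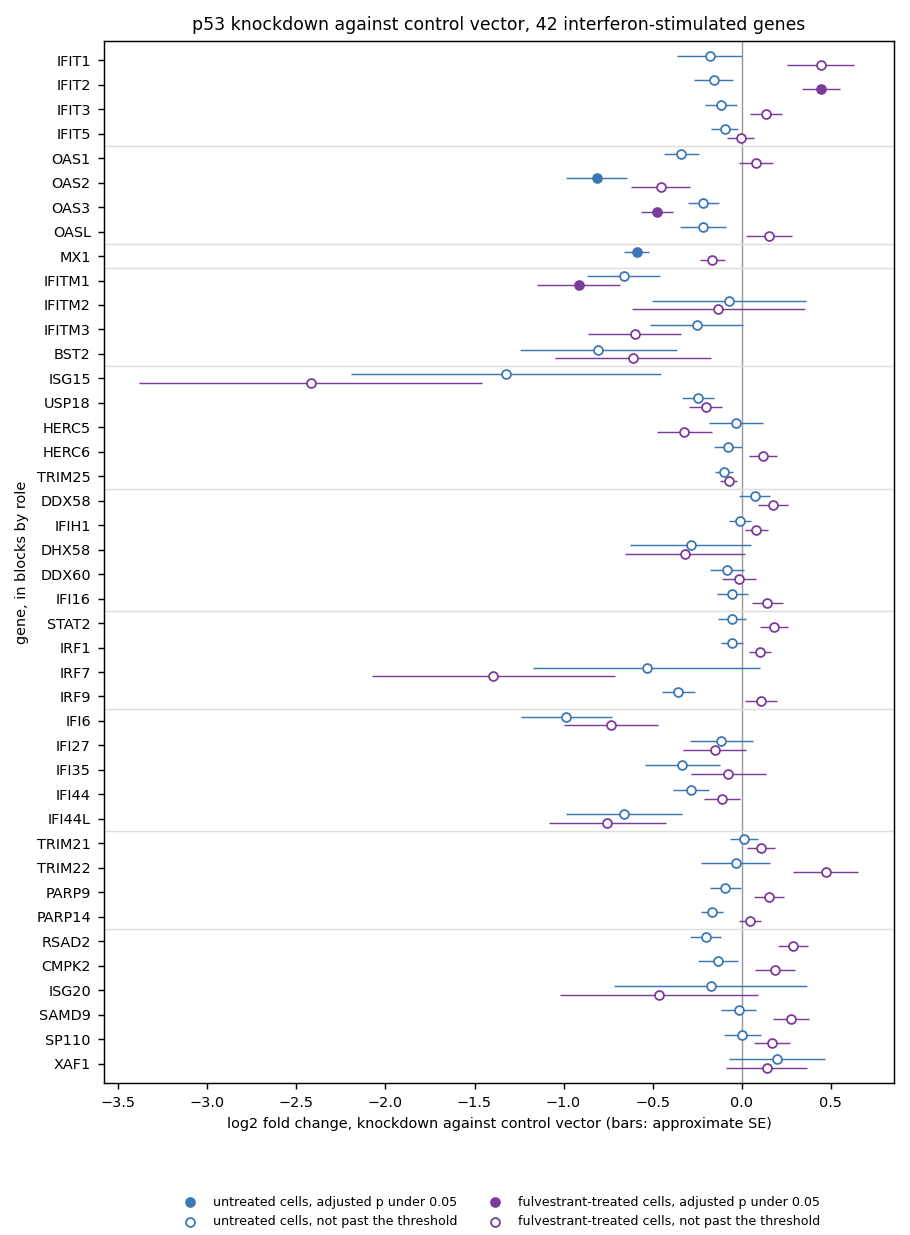
Log2 fold change of knockdown against control vector (horizontal axis) for the 42 tested members in blocks by role (vertical axis). Blue points are untreated cells, purple points fulvestrant-treated cells, bars approximate standard errors and filled points adjusted p under 0.05. In untreated cells 38 of 42 points lie left of 0, while in treated cells 21 lie on either side.

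Genes moved in opposite directions by knockdown and fulvestrant were sought with contrasts averaged over the other factor, which both use all 12 libraries and so are not independent of each other or of the pairwise comparisons. Averaged over treatments, the hairpin lowered 5 members and raised none, 11.9% against 8.16% of all genes (5.03% higher, 3.14% lower). They were OAS2 (log2 fold change −0.63, adjusted p = 0.00827), OAS3 (−0.35, adjusted p = 0.00704), MX1 (−0.38, adjusted p = 0.000978), IFITM1 (−0.79, adjusted p = 0.0109) and IFI6 (−0.86, adjusted p = 0.0157). Averaged over lines, fulvestrant raised 20 members and lowered 4 (OAS3, IFITM1, USP18 and HERC5), 57.1% against 49.1% of all genes (25% higher, 24.1% lower). Upper quartile scaling moved the split of all genes to 30.4% and 18.8%, and that of the members to 23 and 3. GC-corrected, 25 members rose and 5 fell with fulvestrant (61.3% of all genes called), and without the 4 libraries 18 rose and 4 fell (43.7%). In the fit set against untreated libraries numbered 1, 15 members were called (32.8% of all genes), 12 higher and 3 lower. That fit ended the calls of DDX60, HERC5, IFI16, IFIT5, MX1, OAS2, PARP9, SAMD9 and TRIM21 (adjusted p 0.0545 to 0.452). Single libraries also decided some of these averaged calls. HERC5 lost its call without any 1 of 8 libraries (adjusted p 0.0531 to 0.101), PARP9 without any 1 of 10 (0.0533 to 0.154), IFI16 without any 1 of 9 (0.0535 to 0.16) and IFIT5 without any 1 of 5 (0.0557 to 0.101).

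Of the members called in both averages, OAS2 and MX1 moved oppositely on average, lower with the hairpin and higher with fulvestrant. OAS2 rose by 0.55 (SE 0.12, adjusted p = 0.00274) and MX1 by 0.18 (SE 0.05, adjusted p = 0.0111) with fulvestrant. In control-vector cells alone neither passed with fulvestrant (OAS2 0.37, adjusted p = 0.12, MX1 −0.03, adjusted p = 0.798). In treated cells alone neither passed with the hairpin (OAS2 −0.45, adjusted p = 0.136, MX1 −0.16, adjusted p = 0.207). Untreated knockdown cells, the lowest group for both genes, enter both averages. Among all tested genes 205 (1.3%) moved oppositely, 0.458% lower with the hairpin and higher with fulvestrant and 0.846% the other way. Another 2 members, OAS3 and IFITM1, fell with both (4.94% of all genes moved the same way with both). The MX1 call with fulvestrant was lost without treated knockdown library 2 (0.14, adjusted p = 0.0573), which leaves OAS2 alone as oppositely moved.

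Neither gene kept both calls without the 4 libraries, where OAS2 had −0.64 with the hairpin (adjusted p = 0.0584) and 0.61 with fulvestrant (adjusted p = 0.015), and MX1 −0.39 (adjusted p = 0.0137) and 0.15 (adjusted p = 0.103). In that fit 1.02% of all genes moved oppositely, and the hairpin lowered 2 members on average, MX1 and OAS3, with 5.67% of all genes called. In the fit set against untreated libraries numbered 1, no member moved oppositely (1.11% of all genes). There OAS2 had 0.39 (adjusted p = 0.0633) and MX1 0.14 (adjusted p = 0.152) with fulvestrant. This does not show what pairing alone would change. GC-corrected, 4 members moved oppositely, the pair above, PARP14 (−0.10 and 0.37) and TRIM25 (−0.09 and 0.12), with 3.66% of all genes. In that fit the hairpin lowered 13 members and raised 2, DDX58 and SAMD9, with 21.5% of all genes called, 11% higher and 10.4% lower. With the hairpin, ISG15 (−2.13, adjusted p = 0.0318) and IFITM3 (−0.55, adjusted p = 0.0192) passed on average without treated control-vector library 3, and USP18 passed without any 1 of 4 libraries (adjusted p 0.0344 to 0.0466). These were treated control-vector libraries 1 and 3, treated knockdown library 1 and untreated knockdown library 1.

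**Figure D4:**
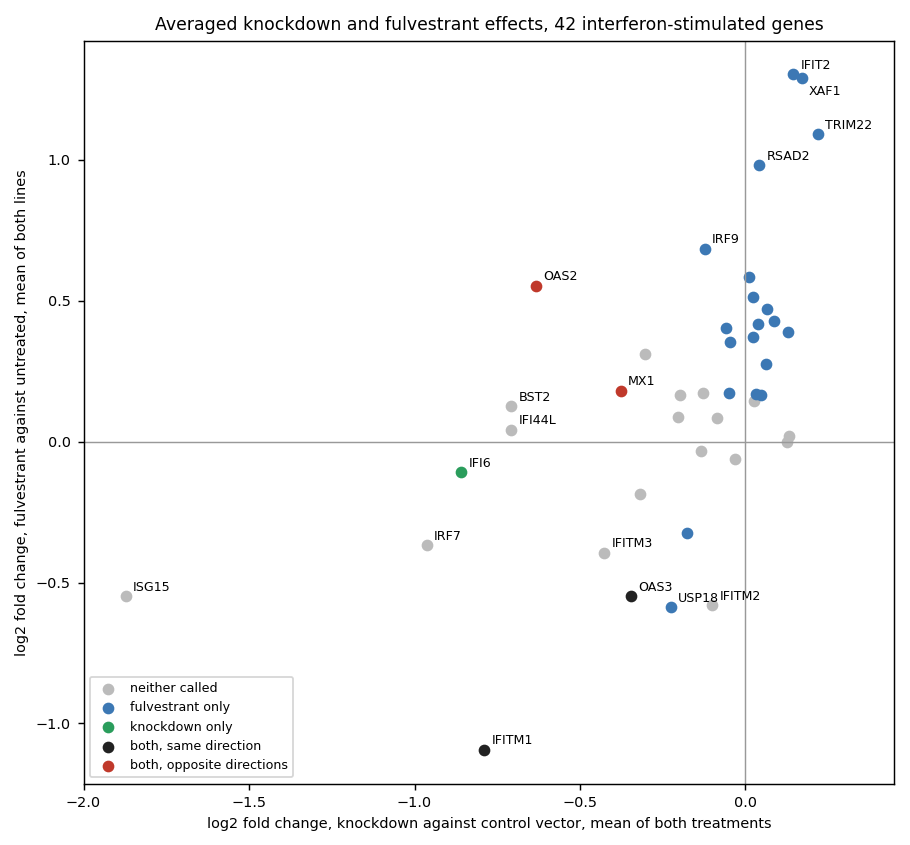
Each point is 1 of the 42 tested members, with the log2 fold change of knockdown averaged over treatments (horizontal axis) and of fulvestrant averaged over lines (vertical axis). Colours show in which average a member passed. OAS2 and MX1 (red) lie upper left, OAS3 and IFITM1 (black) lower left, and ISG15 lies farthest left at −1.87 without passing.

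Whether fulvestrant acted differently in the 2 lines was tested as the difference between the responses. Among members 0 passed (edgeR, adjusted p under 0.05), as against 4 of all tested genes (0.0255%), and 7 members had an unadjusted p under 0.05. DESeq2 also called 0 members, with 0.296% of all genes called. The difference was positive, a larger log2 change in knockdown cells, for 30 of 42 members, with a median of 0.17 against −0.01 for all genes. It is also the hairpin effect in treated cells (median 0.02) less that in untreated cells (median −0.16). This count is therefore not separate from the shared negative sign in untreated cells. IFIT1 (0.62, adjusted p = 0.628), IFIT2 (0.60, adjusted p = 0.259), TRIM22 (0.50, adjusted p = 0.764), RSAD2 (0.49, adjusted p = 0.249), IRF9 (0.46, adjusted p = 0.294), MX1 (0.42, adjusted p = 0.225) and OAS1 (0.42, adjusted p = 0.403) had the highest values.

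GC-corrected, IFIT2 (0.55, adjusted p = 0.00504), RSAD2 (0.44, adjusted p = 0.0203), SAMD9 (0.25, adjusted p = 0.0287) and IRF9 (0.52, adjusted p = 0.0471) passed with a larger response in knockdown cells. OAS3 passed with a stronger fall (−0.22, adjusted p = 0.0397), and 3.84% of all genes passed in that fit. Without the 4 libraries 0 members and 0% of all genes passed, with IFIT2 at 0.55 (adjusted p = 0.36).

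Log2 fold changes ran against transcript GC content in all 7 contrasts, over 12546 genes. The rank correlation was −0.18 and −0.33 with fulvestrant in control-vector and knockdown cells. With the hairpin it was −0.22 in untreated and −0.45 in treated cells, and it was −0.42 for the difference. Some members also ran with the GC slope of the libraries. SAMD9 (36.0% GC) stood in the reverse order of the slopes within all 4 groups and IFITM3 (56.9% GC) in their order. The part of this trend in the calls was not tested. ISG15 (64.7% GC) had 1.39, 4.64 and 7.23 CPM in untreated and 8.30, 4.37 and 0.595 CPM in treated control-vector cells. It had 1.05, 1.69 and 2.54 CPM in untreated and 0.919, 0.193 and 1.41 CPM in treated knockdown cells. The order within each group was the order of the GC slopes, and the part of GC content in its values was not tested beyond the corrected fit. IRF7 (66.8% GC) ran in the same order within all 4 groups. On average the hairpin moved ISG15 by −1.87 on the log2 scale (adjusted p = 0.119), and by −1.49 (adjusted p = 0.0254) GC-corrected.

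**Figure D5:**
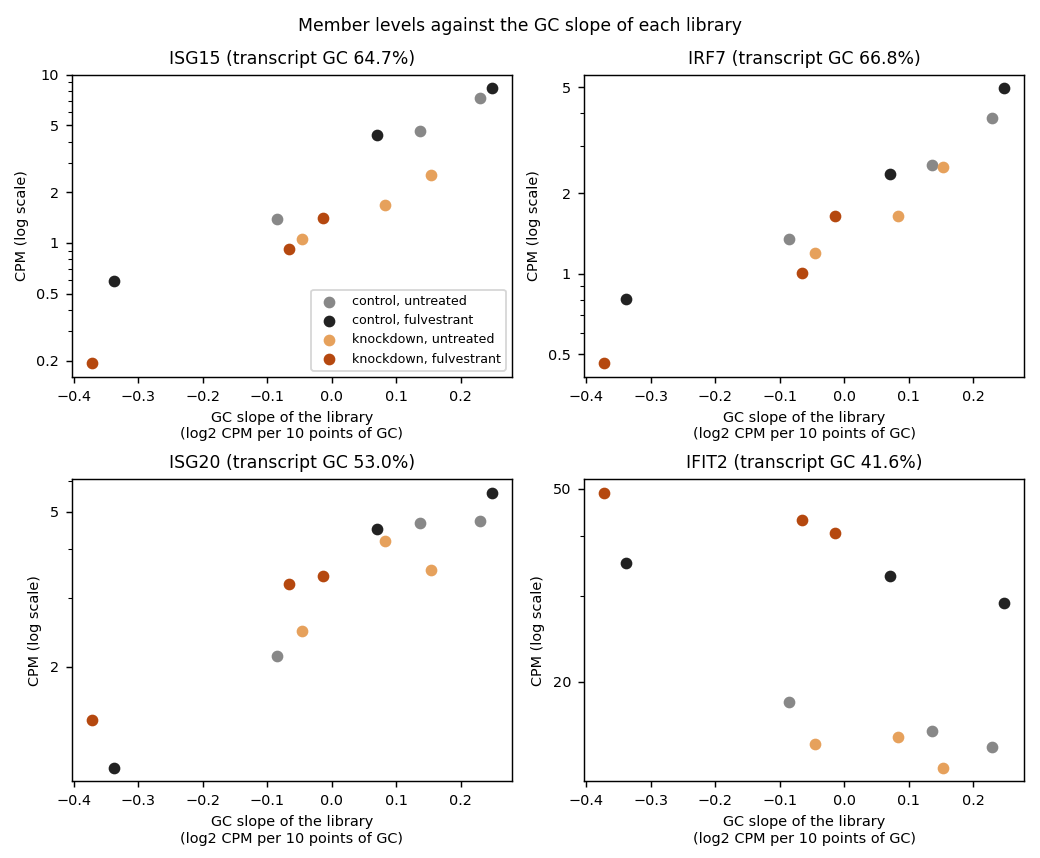
Level in CPM (vertical axis, log scale) of ISG15, IRF7, ISG20 and IFIT2 against the GC slope of each library (horizontal axis, log2 CPM per 10 percentage points of GC). Points are the 12 libraries, coloured by group. ISG15 and IRF7 are higher in libraries with a higher slope, while for IFIT2 treated libraries lie above 29 CPM and untreated ones below 19 at any slope.

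Upstream of the members, interferon genes themselves were at the limit of detection. Of 21 listed interferon genes found in the table, 19 had 0 counts in all 12 libraries, and the whole list summed to 0 or 1 count per library, so none was tested. Such libraries allow up to 3 counts each where 0 were seen, for counting error only. Of 11 tested genes of receptors and JAK-STAT signalling, fulvestrant raised 5 and lowered 0 in control-vector cells and raised 6 and lowered 0 in knockdown cells. These are 45.5% and 54.5% of the list, against 27.8% and 40.9% of all genes, with median log2 fold changes of 0.23 and 0.37. IFNGR1, a chain of the type II interferon receptor, rose from 56.5 ± 1.96 to 77.8 ± 6.23 CPM (0.46, adjusted p = 0.000832) and from 55.1 ± 3.36 to 82.7 ± 4.50 CPM (0.59, adjusted p = 8.88e-05). JAK1 rose by 0.37 and 0.39 (adjusted p = 0.00147 and 0.000596) and IFNAR1 by 0.23 and 0.40 (adjusted p = 0.0288 and 0.000904).

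Among 13 tested genes of sensing and induction, 2 rose and 1 fell in control-vector cells and 4 rose and 1 fell in knockdown cells. Their shares, 23.1% and 38.5%, were below those of all genes, 27.8% and 40.9%. TLR3, the endosomal receptor of double-stranded RNA, rose by 0.56 (adjusted p = 0.00236) and 1.03 (adjusted p = 2.26e-05). The adaptor gene MYD88 rose by 0.15 (adjusted p = 0.0312) and 0.38 (adjusted p = 8.09e-05). MB21D1 (cGAS), the DNA sensor, fell by 0.44 (adjusted p = 0.0217) and by 0.62 (adjusted p = 0.0024) on the log2 scale. Of 12 tested negative regulators, 0 rose and 1 fell in control-vector cells, and 2 rose and 0 fell in knockdown cells, 8.33% and 16.7% against the same shares of all genes. SAMHD1, a nucleotide hydrolase, fell in control-vector cells by 0.29 (adjusted p = 0.00903) and, in untreated cells, with the hairpin by 0.32 (adjusted p = 0.0467). In knockdown cells TRAFD1 rose by 0.44 (adjusted p = 0.00208) and the RNA editing enzyme gene ADAR by 0.17 (adjusted p = 0.0416).

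Interferon-stimulated genes outside the 43, a list also chosen with earlier results of these data known, were counted in the same way. Of 48 tested, fulvestrant raised 16 and lowered 5 in control-vector cells (43.8%), and raised 23 and lowered 4 in knockdown cells (56.2%), against 27.8% and 40.9% of all genes. With the hairpin 1 rose and 0 fell in untreated cells (2.08%, against 1.58% of all genes) and 9 rose and 0 fell in treated cells (18.8%, against 7.02%, of which 4.28% higher). In untreated cells the median of this list with the hairpin was −0.05, with 13 positive and 35 negative, against −0.16 for the members. The groups did not overlap in 3 higher and 3 lower genes of this list, where the members had 0 higher and 15 lower. GBP2, a guanylate-binding protein gene, rose with fulvestrant from 12.4 ± 0.154 to 28.8 ± 2.57 CPM (1.21, adjusted p = 5.27e-06) and from 16.2 ± 0.473 to 45.1 ± 3.90 CPM (1.47, adjusted p = 4.64e-07). GBP2 was also higher with the hairpin, by 0.38 untreated (adjusted p = 0.0461) and 0.65 treated (adjusted p = 0.000915). SLFN5 rose by 1.12 and 1.23 (adjusted p = 3.28e-06 and 5.80e-07), and TNFSF10, the gene of the death ligand TRAIL, by 0.89 and 1.25 (adjusted p = 3.26e-05 and 1.39e-06).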

How the data were processed

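The authors deposited one table of estimated counts (RSEM, whole numbers, not normalized), per the file headers. The submitters' processing notes name RSEM 1.3.3, Bowtie2, cutadapt, MultiQC and GRCh37/hg19. Libraries were stranded mRNA, per the labels' protocols. The sources used here give neither the annotation nor strand use in counting, so overlapping genes may share reads. Another 6 value columns match none of the samples and were left out.

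Counts were fitted in R 4.3.3 with edgeR 4.0.16: TMM factors (0.98 to 1.06), filterByExpr (15715 genes), 1 mean per group over all 12 libraries and robust quasi-likelihood tests of 7 contrasts. Benjamini-Hochberg adjustment ran over all tested genes, with a threshold of 0.05. Levels are TMM-scaled CPM. Standard errors are approximate (log2 change over the square root of F). The model was tested on simulated data that held no GC trend, so that test does not cover the trend described above. GC content and length came from reference transcripts matched by identifier, found for all 43 members.

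Values in every library are given for the 14 members of smallest p in the 4 pairwise contrasts whose mean log2 CPM reached 1. Other called members get means, and each further list gives its 3 called genes of smallest p. A gene that this rule adds and the level of the gene targeted by the hairpin are not reported here. Members and lists were chosen with earlier results of these data known. Same-numbered libraries deviated together only between the untreated groups (correlations 0.78, 0.14 and 0.66). Every other pair of groups had a negative one, so numbers were taken to pair untreated libraries alone. In that fit the hairpin contrasts are paired, while fulvestrant contrasts are set against the fitted level of untreated libraries numbered 1. Alternatives were DESeq2 1.42.0, other scalings, filters and libraries, a replicate block and a GC correction.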

Additional observations from a re-analysis of the deposited data

How the results depend on the processing

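No called result turned direction in any alternative run. For 170 values of named genes, the side of the threshold was the same in 3668 comparisons with an alternative, a call was lost in 293 and gained in 48. Called members in untreated cells with the hairpin numbered 2, and 1 with upper quartile factors, with DESeq2, with only the 6 libraries compared or without the 4 libraries far along the GC trend. In treated cells they numbered 3, but 0 with only the 6 libraries compared and 1 without the 4 libraries. GC-corrected, they numbered 7 untreated, 7 treated, 15 on average over treatments and 5 for the difference between responses. Without the 4 libraries 2 were called on average. Of 2 members moved oppositely, 1 was left without a low count filter, 4 were found GC-corrected and 0 without the 4 libraries. The cause was not tested in any of these.

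A replicate block over all groups left 1 member called with the hairpin in untreated and 1 in treated cells. Joined with the GC correction, the block gave 5 untreated, 5 treated, 10 on average, 2 for the difference and 4 moved oppositely. With the block in untreated cells alone, fulvestrant contrasts were set against untreated libraries numbered 1. There 15 members were called with fulvestrant on average and 0 moved oppositely. That block with the GC correction gave 6 untreated, 7 treated, 12 on average and 4 for the difference. The block moved no other count by over 1.5 times.

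Leaving out 1 library at a time gave 1 to 2 calls with the hairpin in untreated and 1 to 7 in treated cells, 13 to 17 with fulvestrant in control-vector and 20 to 27 in knockdown cells. It gave 0 to 0 for the difference, 5 to 8 and 20 to 25 for the averages and 1 to 2 moved oppositely. Low counts limit ISG15, XAF1, IFI6, IFITM1, IFITM2, BST2, IFI44L and MX2.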
